A study of Mus musculus with 5 samples.

Results

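The RNA-binding proteins that choose splice sites were followed in B16F10 cells, a pigmented mouse melanoma line. Members were the protein-coding genes whose symbols name an hnRNP, an SR protein (Srsf), or a regulator of the Mbnl, Celf, Rbfox, Ptbp, Esrp or Nova families, together with Rbm20, Rbm24 and Rbm38. These are 53 of the 22046 protein-coding genes and of the 54699 genes in the deposited table. The 31 hnRNP and SR genes are called general regulators here, and the other 22 are called tissue regulators.

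Cells were infected with lentivirus in every group. On day 8, 3 groups were collected: cells with forced expression of mouse Myod1, the transcription factor that drives skeletal muscle differentiation, cells with forced expression of mouse Pparg, the nuclear receptor of fat cells, and wild-type cells with the empty expression vector. On day 7, 2 groups were collected: cells with a short hairpin RNA against Setdb1, a histone H3 lysine methyltransferase, and wild-type cells with the empty knockdown vector. Each group is 1 RNA-seq library, so no difference has a replicate check and no test between conditions was possible. The Myod1 and Pparg libraries share 1 control. The promoter that drives each transgene is not given in the sources used here, nor is it given whether the cells came from 1 clone.

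Most exons of a pre-mRNA are recognised through short sequences in and around them. SR proteins typically bind exonic enhancers and help the spliceosome to use an exon, whereas many hnRNPs bind silencers and oppose its use. Tissue regulators such as Rbfox, Mbnl, Celf and Rbm24 add a layer that depends on the cell type, and several of them are known for switching sarcomere and ion channel exons in developing muscle. The values below are gene totals in FPKM (fragments per kilobase of gene length, corrected for sequencing depth), and they show neither isoforms nor exon use.

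The libraries held between 16214802 and 18300670 reads assigned to genes. Myod1 stood at 260 FPKM in its own library and was listed at 0 in the other 4, and Pparg stood at 44.4 FPKM in its own library and was listed at 0 in the other 4. Setdb1 stood at 0.867 FPKM in the knockdown library and 9.82 FPKM in its control. All 7 melanocyte markers examined reached 1 FPKM in every library, with a summed level of 3110 FPKM with Myod1 expression, 2195 FPKM with Pparg expression, 7583 FPKM in their control, 8985 FPKM with Setdb1 knockdown and 8222 FPKM in its control. With Setdb1 knockdown Pmel (4347 against 2993 FPKM in its control), Dct and Sox10 were higher. Mitf (13.7 against 41.6 FPKM), Tyr, Tyrp1 and Mlana were lower. The 6 skeletal muscle markers summed to 28567 FPKM in the Myod1 library against 10.8 to 32.3 FPKM in the others, and the 4 adipocyte markers to 301 FPKM in the Pparg library against at most 0.123 FPKM in the others. Of these 4, 3 reached 1 FPKM in the Pparg library, Fabp4 at 153 FPKM, Cd36 at 146 FPKM and Plin1 at 1.25 FPKM. Adipoq stood at 0.0756 FPKM there. None of the 4 epithelial markers reached 1 FPKM in any library, and the neuronal marker Snap25 was listed at 0 in all 5. Of the 5 neuronal markers 1 or 2 reached 1 FPKM in each library (summed level 36.4 to 202 FPKM), as did 1 or 2 of the 4 immune markers (2.58 to 20.8 FPKM).

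General and tissue regulators differed in how many members the melanoma cells expressed at all. Of the 31 general members, 30 reached 1 FPKM in every library, and the exception, Srsf12, had at most 1 read in any library. Of the 22 tissue members, 10 to 11 reached 1 FPKM in each library. A gene was compared between libraries when it reached 1 FPKM in at least 1 library, which held for 42 members (30 general and 12 tissue) and for 12842 genes in all. Of those 12 tissue members, Rbfox1 passed only through the Myod1 library and Nova1 only through the empty knockdown vector control, at 1.02 FPKM, so the members compared are not all members. The 11 left out were Srsf12, Celf3, Celf4, Celf5, Celf6, Esrp1, Esrp2, Mbnl3, Nova2, Rbfox3 and Rbm24. Celf4 and Esrp1 had no read in any library, and the highest level among the 11 was 0.629 FPKM, for Mbnl3. The 3 regulators taken as markers of the set thus gave different pictures, since Rbm24 and Mbnl3 stayed under 1 FPKM everywhere and Celf2 lay between 2.56 and 8.84 FPKM.

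The upstream regions of Rbfox1 and Rbm24 are shown because these 2 genes had reads in the Myod1 library and none in the other 4. Myod1 binds, as a dimer with an E protein, to E-boxes, whose letters are CANNTG, and CAGCTG is a form often found at its sites. The sequences are the 250 bases before RefSeq transcript starts (assembly GRCm38.p6, plus strand), printed 5′ to 3′ with every CANNTG in capitals. Rbfox1 has 2 separate starts in that table, at chr16:5884543-5884792 and chr16:7069585-7069834, and Rbm24 has 1, at chr13:46418050-46418299.
Rbfox1, first start: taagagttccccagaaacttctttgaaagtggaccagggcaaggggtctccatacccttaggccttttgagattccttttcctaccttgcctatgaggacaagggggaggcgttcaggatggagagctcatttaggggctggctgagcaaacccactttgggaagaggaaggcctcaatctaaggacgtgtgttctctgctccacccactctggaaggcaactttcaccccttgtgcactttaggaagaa
Rbfox1, second start: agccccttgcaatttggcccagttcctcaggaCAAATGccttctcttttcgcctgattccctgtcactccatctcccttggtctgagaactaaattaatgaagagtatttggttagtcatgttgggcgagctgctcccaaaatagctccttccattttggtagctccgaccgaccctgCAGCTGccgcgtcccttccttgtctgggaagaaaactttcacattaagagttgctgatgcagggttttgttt
Rbm24: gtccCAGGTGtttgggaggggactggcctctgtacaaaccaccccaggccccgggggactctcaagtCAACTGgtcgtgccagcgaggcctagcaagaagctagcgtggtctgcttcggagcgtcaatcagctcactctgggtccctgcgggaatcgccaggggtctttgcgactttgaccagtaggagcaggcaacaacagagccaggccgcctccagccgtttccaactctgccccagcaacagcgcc

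The first Rbfox1 stretch holds no E-box, the second holds CAAATG 218 bases and CAGCTG 72 bases before the start, and the Rbm24 stretch holds CAGGTG 246 bases and CAACTG 183 bases before it. CANNTG and CAGCTG each read the same on the other strand, and CAGCTG is one form of CANNTG. Over windows of 300 bases, from 250 before a start to 50 after it, CANNTG occurred in 72.3% of all 32851 windows and in 48 of the 74 windows (64.9%) of the 45 members with an entry. CAGCTG occurred in 16.3% of all windows and in 13 of those 74 (17.6%). The Ptbp1 window holds 3 CANNTG. The window that the table gives for Rbm38 holds none, but its start lies inside the gene as deposited and 230 of its 250 bases before that start are exonic in GENCODE M21, so it is not the region before the gene. These matches are letters in a window, and binding of Myod1 was not measured.

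With Myod1 expression, 3 tissue regulators were at least 2-fold higher than in the control and no general regulator was. The 3 were Rbm38, Rbfox2 and Rbfox1. At least 2-fold higher means a log2 ratio of at least 1, computed as log2(FPKM + 1) in the treated library minus the same in its control. Of all 12842 genes, 14.0% were at least 2-fold higher and 7.55% at least 2-fold lower in this comparison, beside 3 of 12 tissue members and 0 of 30 general members. Rbfox1 is among the 12 only because of its level in the Myod1 library, and without it 2 of 11 tissue members were higher, so the share of tissue members is partly set by the filter and nothing is read from it. Muscle markers moved with these genes in the same library, and their part in the result was not tested. In bulk RNA a change in the number of cells of a type cannot be told apart from a change in RNA per cell.

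Rbm38 (chr2:173020498-173034734, plus strand, GRCm38) encodes a protein that binds GU-rich RNA and acts in myogenic splicing and in mRNA stability. It stood at 132 FPKM in the Myod1 library (95% counting interval 129 to 135), 24.3 FPKM in the Pparg library, 21.4 FPKM in the empty expression vector control (20.2 to 22.8), 20.5 FPKM in the Setdb1 knockdown library and 24.0 FPKM in the empty knockdown vector control. The Myod1 library stood alone, 6.16-fold above its control, and the other 4 lay close together. The log2 ratio was 2.57 for Myod1 expression and 0.17 and -0.22 for Pparg expression and Setdb1 knockdown. An antisense gene, Gm14453, overlaps Rbm38 and had 4.03 FPKM in the Myod1 library and 0.443 FPKM in its control. Whether the counting used strand is not stated, so reads of the pair cannot be told apart.

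Rbfox2 (chr15:77078990-77307004, minus strand) is the most widely expressed of the Rbfox proteins, which activate or repress exons according to where they bind. Its level was 42.4 FPKM with Myod1 expression, 12.5 FPKM with Pparg expression, 11.7 FPKM in the empty expression vector control, 11.8 FPKM with Setdb1 knockdown and 8.55 FPKM in the empty knockdown vector control. Here too the Myod1 library was apart from the rest, by 3.64-fold over its control (log2 ratio 1.78). Against the other control the log2 ratio was 2.18.

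Rbfox1 (chr16:5885355-7411526, plus strand), the paralog known from muscle, heart and neurons, had 174 reads in the Myod1 library, or 2.51 FPKM, and no read in any of the other 4. Against a floor of 3 reads in its control this is at least 60.3-fold higher. Rbm24 (chr13:46418434-46431095, plus strand), a muscle splicing factor and close relative of Rbm38, had 14 reads in the Myod1 library and again none elsewhere. Its 0.255 FPKM (0.152 to 0.428) is at least 4.85-fold above the 3-read floor, yet it lies under the level at which genes were compared. Rbfox3, the neuronal paralog, had at most 7 reads in any library.

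**Figure D1:**
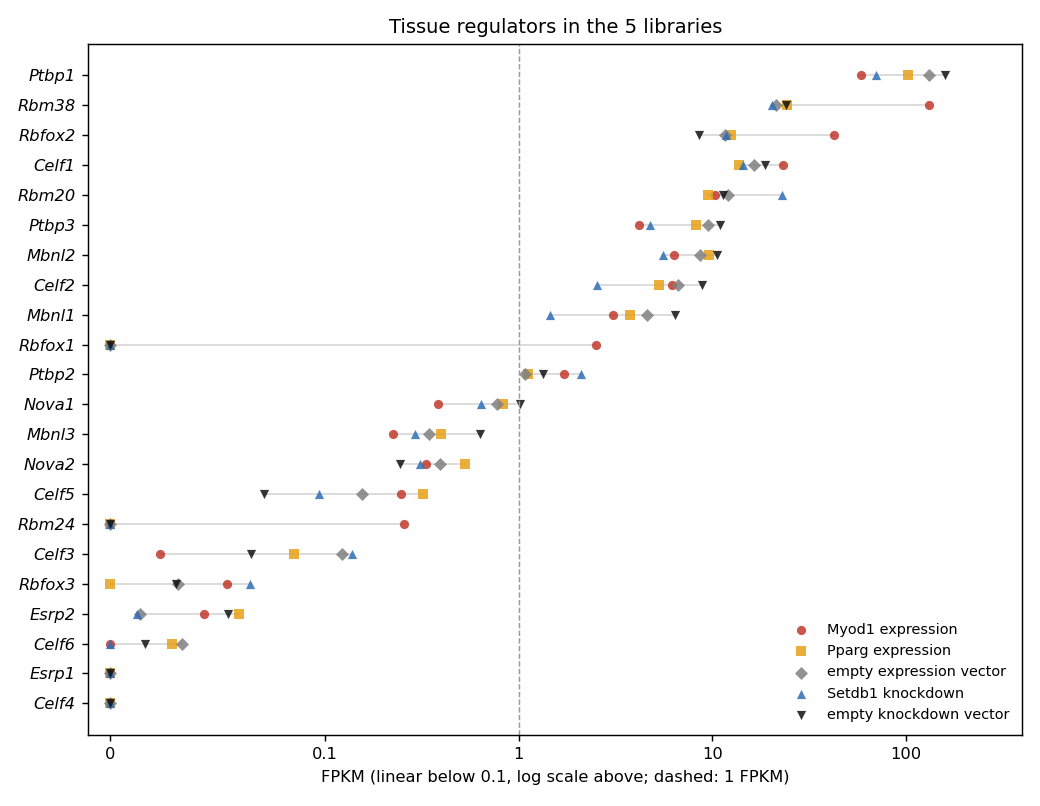
FPKM of the 22 tissue regulators (axis linear below 0.1 FPKM and logarithmic above), 1 symbol per library, with a line from the lowest to the highest library and a dashed line at 1 FPKM. Rbm38 and Rbfox2 are highest in the Myod1 library, Rbfox1 has reads only there, and Ptbp1 is lowest there and in the Setdb1 knockdown library.

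The polypyrimidine tract binding proteins divided. Ptbp1 (chr10:79854427-79864771, plus strand), which represses many muscle and neuronal exons, stood at 59.0 FPKM in the Myod1 library, 103 FPKM in the Pparg library, 131 FPKM in the empty expression vector control, 69.7 FPKM in the Setdb1 knockdown library and 159 FPKM in the empty knockdown vector control. Both controls and the Pparg library were thus above the Myod1 and Setdb1 libraries without overlap, with log2 ratios of -1.14 for Myod1, -0.35 for Pparg and -1.18 for Setdb1. Ptbp3, a paralog first known from blood cells, followed the same order, at 4.17, 8.24, 9.57, 4.75 and 11.0 FPKM in the same 5 libraries, with log2 ratios of -1.03, -0.19 and -1.06. Ptbp2, the form that takes over from Ptbp1 in neurons, was low throughout, at 1.08 FPKM in the empty expression vector control, 1.72 FPKM with Myod1 expression, 1.33 FPKM in the empty knockdown vector control and 2.10 FPKM with Setdb1 knockdown. Its log2 ratios of 0.39 and 0.41 stayed under the 2-fold limit. Ptbp2 made up 0.763% and 0.775% of the summed Ptbp FPKM in the controls, 2.65% in the Myod1 library and 2.74% in the Setdb1 library, and Ptbp1 remained at 90.9% to 92.8% in all 5. Against the other control, Ptbp1 and Ptbp3 were again at least 2-fold lower with Myod1 expression, whereas with Setdb1 knockdown their log2 ratios were -0.90 and -0.88.

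Mbnl and Celf proteins often act on the same exons in opposite ways, and Mbnl is the family that expanded CUG repeats sequester in myotonic dystrophy. Mbnl1 stood at 3.08 FPKM with Myod1, 3.75 FPKM with Pparg, 4.58 FPKM in the empty expression vector control, 1.45 FPKM with Setdb1 knockdown and 6.44 FPKM in the empty knockdown vector control. The Setdb1 library was the lowest, with a log2 ratio of -1.60, the lowest of any member in that comparison. Celf2 gave 6.23, 5.31, 6.65, 2.56 and 8.84 FPKM in the same order, and its log2 ratio of -1.47 for Setdb1 knockdown contrasts with -0.08 for Myod1 and -0.28 for Pparg. Against the other control the Setdb1 ratios were -1.19 for Mbnl1 and -1.11 for Celf2, so both stayed at least 2-fold lower. After trends with GC content and gene length were removed they were -0.83 and -0.82, within 2-fold. Mbnl2 (log2 ratio -0.82) and Celf1 (-0.36) were also lower in the Setdb1 library but within 2-fold.

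The balance within each family differed as well, measured as a share that does not depend on scaling between libraries. Mbnl1 took 19.9% of the summed Mbnl FPKM in the Setdb1 library against 36.4% in its control, and 27.3% to 33.8% in the other 3 libraries. Celf1 took 83.7% of the summed Celf FPKM in the Setdb1 library against 67.6% in its control, and Celf2 took 14.9% against 31.9%. With Myod1 expression, Celf1 took 78.0% against 70.2% in the control, and at 23.1 FPKM it was higher there than in the other libraries, which lay between 13.7 and 18.7 FPKM. Mbnl3, mostly seen in placenta and muscle precursors, had 31 to 92 reads per library and 2.33% to 3.99% of the Mbnl sum.

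**Figure D2:**
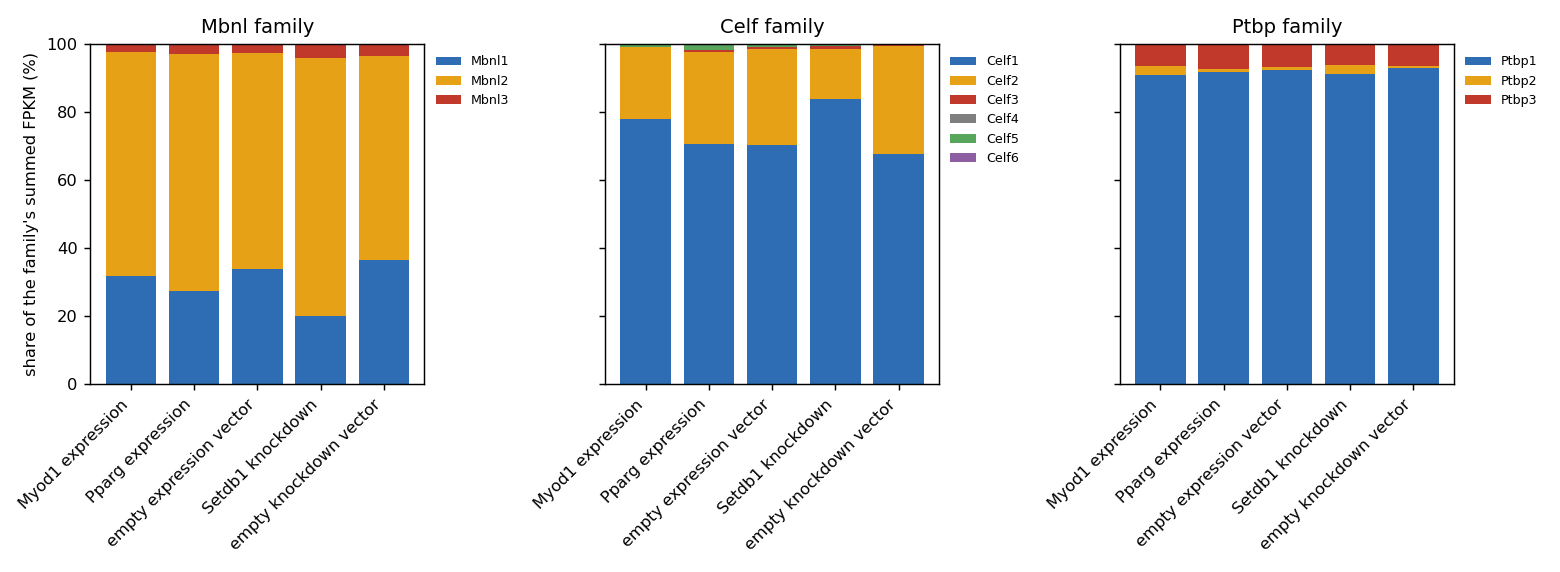
Share of each family's summed FPKM taken by each member, in percent, for the Mbnl, Celf and Ptbp families in the 5 libraries. Mbnl1 and Celf2 take their smallest shares in the Setdb1 knockdown library (19.9% and 14.9%), and Ptbp1 takes at least 90.9% everywhere.

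Rbm20, best known for splicing titin in the heart, was the tissue member with the highest ratio in the Setdb1 comparison. It stood at 23.1 FPKM in the Setdb1 library against 11.4 FPKM in its control, and at 10.4, 9.57 and 12.1 FPKM with Myod1, Pparg and the empty expression vector. The raw ratio was 2.03-fold, but with 1 added to each value the log2 ratio of 0.96 fell just short of the limit. Nova1, a neuronal regulator, lay between 0.385 and 1.02 FPKM, and its ratios stayed within 2-fold. The epithelial regulators Esrp1 and Esrp2 had at most 5 reads in any library. 

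Summed over its 22 genes, the tissue class stood at 293 FPKM in the Myod1 library and 225 FPKM in its control. Without Rbm38, Rbfox1 and Rbfox2, left out because they were higher with Myod1, the sums were 116 and 192 FPKM. Within these sums Ptbp1 alone stood at 59.0 and 131 FPKM, so nothing is read from them about the other members. Of the sum over all 22 genes, Rbm38 alone took 45.1% in the Myod1 library and 9.53% in its control, and Ptbp1 took 20.2% and 58.2%. The leading tissue regulator by FPKM was therefore Rbm38 in the Myod1 library and Ptbp1 in the other 4. Ptbp1, Ptbp3, Mbnl1, Mbnl2 and Celf1 are expressed in many tissues and are tissue regulators here by family. Of the 7 others compared, none was 2-fold lower with Myod1 expression, where the median log2 ratio was 0.39 instead of -0.14, and 1, Celf2, was lower with Setdb1 knockdown. That median includes Rbfox1, which was compared only because of its level in the Myod1 library.

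General regulators were lower with Myod1 expression. Of 30 compared, 6 were at least 2-fold lower, none was at least 2-fold higher, and 26 had a ratio below 0, with a median log2 ratio of -0.61 against 0.02 over all genes compared. All 6 are hnRNPs, and 6 of 30 is a larger share than the 7.55% of all genes given above. The size of that gap depended on the value added to each FPKM. With 0.1 added instead of 1, 6 general members were again lower, beside 13.2% of all genes. With Ptbp1 and Ptbp3, 8 members in all were at least 2-fold lower. The summed melanocyte markers were also lower in this library than in its control (3110 and 7583 FPKM), and their part in the result was not tested. The SR genes had a median of -0.27, with 7 of 10 below 0, and the hnRNPs a median of -0.64, with 19 of 20 below 0. Against the other control the medians were -0.75 for the SR genes and -0.76 for the hnRNPs, so a gap between the 2 groups was seen with 1 control only. Medians below 0 were not particular to general regulators. Against the empty expression vector control, 16 SR-related proteins had a median of -0.59. The median was -0.65 for 31 other RNA-binding splicing regulators and -0.43 for 54 core spliceosome genes, all described below.

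Hnrnpa3, a member of the A/B group, had the lowest ratio of any member, at -1.63. Its level was 1.99 FPKM with Myod1, 4.55 FPKM with Pparg, 8.24 FPKM in the empty expression vector control, 1.84 FPKM with Setdb1 knockdown and 7.18 FPKM in the empty knockdown vector control. Hnrnpa1, a classic repressor of exon inclusion, followed the same order, at 52.1, 86.8, 135, 45.4 and 123 FPKM, and its log2 ratio was -1.36 for Myod1 and -1.42 for Setdb1. For both genes the Myod1 and Setdb1 libraries lay below all others and the Pparg library in between. Reads that could also come from the many processed copies of Hnrnpa1 were handled in a way that is not stated, so its level is uncertain.

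Hnrnpm, which binds GU-rich sequences, stood at 19.1 FPKM with Myod1 and 56.1 FPKM in the control, a log2 ratio of -1.50. Its reads may be mixed with those of March2, which overlaps it on the same strand and stood at 14.8 FPKM with Myod1 and 3.97 FPKM in the control. Hnrnpu, a nuclear scaffold protein that binds chromatin-associated RNA, stood at 22.2 and 59.4 FPKM in these libraries (log2 ratio -1.38). Hnrnph1, which binds runs of G, stood at 10.5 and 28.3 FPKM (log2 ratio -1.35). Hnrnpd, which binds AU-rich elements and influences mRNA decay, had a log2 ratio of -1.05, and against the other control it lay at -0.97, so that 5 of the 6 general genes were at least 2-fold lower against both controls.

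A few general regulators had ratios above 0 with Myod1 expression. Hnrnpa0, an AU-rich element binding protein, stood at 141 FPKM with Myod1 and 108 FPKM in the control, and its log2 ratio of 0.38 was the only one above 0 among the 20 hnRNPs. Srsf6 (0.38), Srsf2 (0.24) and Srsf5 (0.20) were the 3 SR genes above 0, and Srsf9 (-0.82) was the lowest SR gene. With the other control in its place, Srsf6 (-0.45) and Srsf2 (-0.69) lay below 0, and Srsf5 (0.24) and Hnrnpa0 (0.20) above it. All of these lay within 2-fold. Srsf2 overlaps Mettl23 on the opposite strand, which stood at 18.7 FPKM with Myod1 and 4.58 FPKM in the control. Reads of that pair may be mixed.

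**Figure D3:**
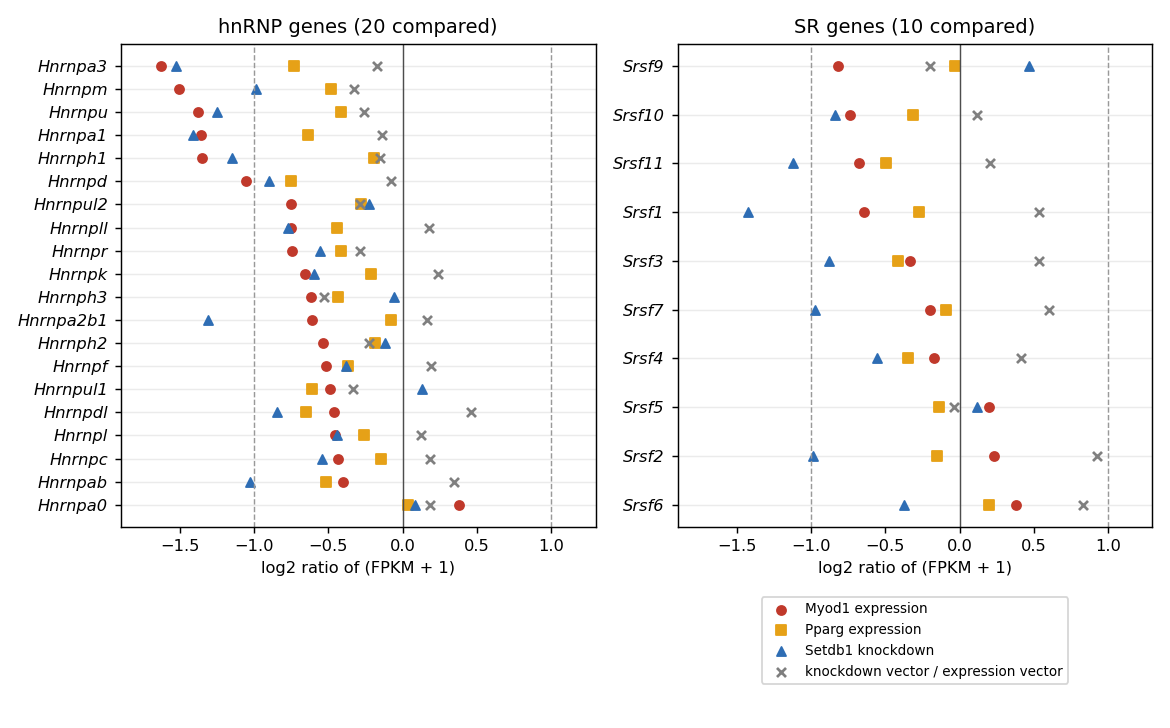
Log2 ratios of the 30 general regulators compared, 1 row per gene, for the 3 treated-control comparisons and for the knockdown control against the expression control, with dashed lines at the 2-fold limits. With Myod1 expression and with Setdb1 knockdown 26 of 30 genes lie left of 0, and between the controls 13 of 30 do.

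With Pparg expression no member was at least 2-fold higher or lower, while 4.22% of all genes were higher and 2.30% lower. The general regulators lay slightly below the control, with 28 of 30 below 0 and a median of -0.33 against -0.02 over all genes. Hnrnpd had the lowest ratio (-0.75) and Srsf6 the highest (0.20). Tissue regulators had a median of -0.10, from -0.35 for Ptbp1 to 0.17 for Rbm38. The sign of the Rbm38 and Ptbp3 ratios changed under at least 1 alternative setting (ranges -0.00 to 0.27 and -0.38 to 0.00). Against the other control, Hnrnpdl (-1.11) and Srsf2 (-1.08) were at least 2-fold lower. The Myod1 and Pparg comparisons share their control library, so their ratios are not independent and no agreement between them is counted.

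With Setdb1 knockdown 12 members were at least 2-fold lower and none higher, beside 10.3% of all genes lower and 9.34% higher. Among the 30 general regulators 8 were lower, or 26.7%, namely Hnrnpa1, Hnrnpa2b1, Hnrnpa3, Hnrnpab, Hnrnph1, Hnrnpu, Srsf1 and Srsf11. Their class had a median of -0.81, with 26 of 30 below 0, while the median of all genes was 0.00. With 0.1 instead of 1 added to each FPKM, 9 general members were lower, beside 16.3% of all genes. Marker sums of other cell types also differed between these libraries, at 36.4 FPKM with knockdown and 120 FPKM in the control for the 5 neuronal markers, most of it Tubb3, and at 20.8 and 5.54 FPKM for the 4 immune markers, of which Ptprc and Cd3e were at or near 0. Their part in the result was not tested. The other 4 of the 12 lower members were the tissue members Mbnl1, Celf2, Ptbp1 and Ptbp3.

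Hnrnpab was the most abundant general regulator in every library, at 248 FPKM with Myod1, 230 FPKM with Pparg, 329 FPKM in the empty expression vector control, 204 FPKM with Setdb1 knockdown and 418 FPKM in the empty knockdown vector control. Its log2 ratio for Setdb1 was -1.03, and against the other control it was -0.69. Hnrnpa2b1, the close relative of Hnrnpa1, gave 58.6, 85.1, 90.0, 40.1 and 101 FPKM in the same order, and the Setdb1 library was the lowest (log2 ratio -1.31, and -1.15 against the other control).

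Srsf1, the founding SR protein, stood at 16.7 FPKM in the Setdb1 library and 46.6 FPKM in its control, a log2 ratio of -1.43. In the empty expression vector control it stood at 31.8 FPKM, and against that library the ratio was -0.89. Srsf11 behaved alike, with -1.12 and -0.92. Srsf2 (-0.99), Hnrnpm (-0.99) and Srsf7 (-0.97) lay just inside the limit. Srsf2 stood at 60.4 FPKM in the Setdb1 library and at 56.8 to 74.4 FPKM in the 3 libraries collected on day 8, so that only its control, at 121 FPKM, stood apart. Srsf2 overlaps Mfsd11 on the opposite strand, which stood at 31.9 FPKM in the Setdb1 library and 12.3 FPKM in its control. The highest SR ratio was that of Srsf9 (0.47).

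The controls themselves differed in the SR genes. No member differed 2-fold between them, and taking the knockdown control against the expression control, 1.23% of all genes were at least 2-fold higher and 1.44% lower. Yet 8 of 10 SR genes were higher in the empty knockdown vector control, with a median log2 ratio of 0.47, led by Srsf2 (0.93) and Srsf6 (0.83), while the hnRNPs had a median of -0.11, with 11 of 20 below 0. Of all genes 5998 of 12842 lay above 0, with a median of -0.003. The SR median for Setdb1 knockdown was -0.86 against its own control and -0.24 against the other. For the hnRNPs the medians were -0.69 and -0.59. Vector, day of collection and library cannot be told apart in this difference.

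The Myod1 and Setdb1 comparisons have separate controls. Hnrnpa1, Hnrnpa3, Hnrnph1 and Hnrnpu were at least 2-fold lower in both, which is 66.7% of the 6 general genes lower with Myod1 and 50% of the 8 lower with Setdb1 knockdown. Over all genes 373 were lower in both, or 38.5% of 970 and 28.1% of 1326. Against both control libraries, 7 of the 12 members stayed at least 2-fold lower with Setdb1 knockdown, namely Hnrnpa1, Hnrnpa2b1, Hnrnpa3, Hnrnph1, Hnrnpu, Mbnl1 and Celf2. After removal of the GC and length trends, Hnrnpa1 and Hnrnpa3 were the only ones of these 7 still 2-fold lower with Setdb1 knockdown, and of the 4 general genes lower in both comparisons they were again the only ones lower in both. Ptbp1 and Ptbp3, the tissue members lower in both comparisons, differed under that setting, where Ptbp1 stayed 2-fold lower in both and Ptbp3 in neither.

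**Figure D4:**
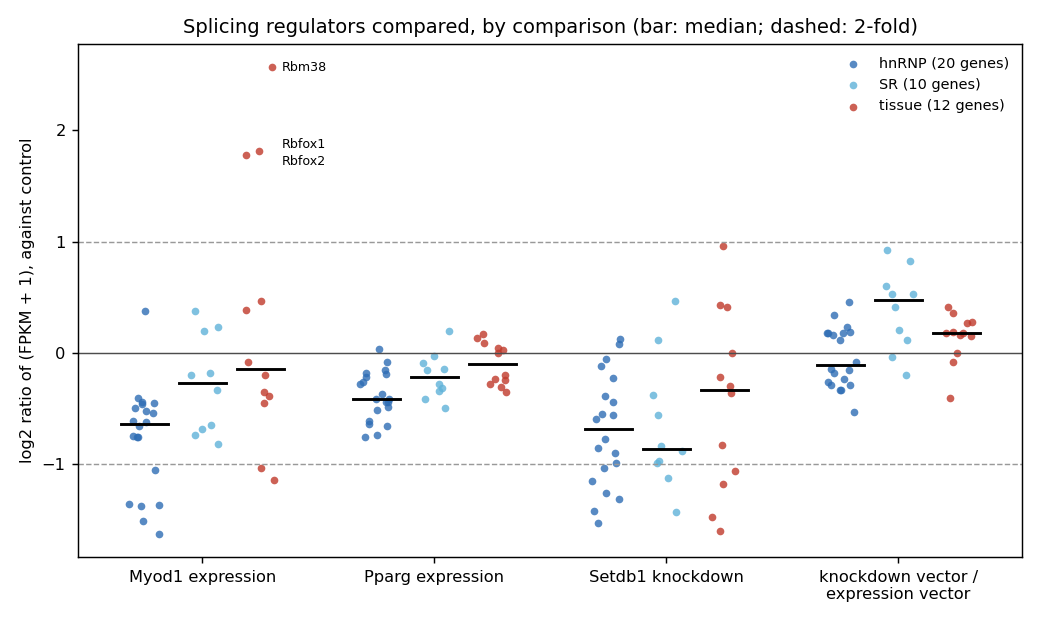
Log2 ratios of the 42 members compared, 1 point per gene, split into hnRNP, SR and tissue genes for the 3 treated-control comparisons and for the knockdown control against the expression control, with bars at the medians and dashed lines at the 2-fold limits. The tissue regulators reach 2.57 with Myod1 expression, where the general regulators reach 0.38 at most.

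As a share of reads, the 31 hnRNP and SR genes took 0.410% in the Myod1 library (95% Wilson interval 0.407% to 0.413%), 0.620% in the Pparg library, 0.689% in the empty expression vector control, 0.4999% in the Setdb1 library and 0.814% in the empty knockdown vector control. The Myod1 and Setdb1 libraries were thus the lowest, and the intervals of the libraries did not overlap. A share depends on all other genes of the library, and Acta1 alone had 362115 reads in the Myod1 library. As summed FPKM the 31 genes stood at 1136, 1264, 1567, 1118 and 1814 in the same order. The share of the 22 tissue genes was 0.140%, 0.137%, 0.142%, 0.105% and 0.177%. The intervals cover counting error only.

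The counts of lower members changed with the scaling and when trends with GC content and with gene length were removed together. Division by the column sum moved the median of all genes with Myod1 expression from 0.02 to -0.26, where 16 of the 42 members and 14.8% of all genes were at least 2-fold lower and all 30 general genes lay below 0. The share of higher genes among those changed was then 39.4%, against 65.0% as deposited and 52.7% after scaling to the 75th percentile. The transcripts of the general regulators had a median GC content of 43.3% against 50.1% over all genes compared, and after both trends were removed 5 of 42 members stayed lower with Myod1 (Hnrnpa1, Hnrnpa3, Hnrnph1, Hnrnpm and Ptbp1) and 5 were lower with Setdb1 knockdown (Hnrnpa1, Hnrnpa3, Hnrnpab, Ptbp1 and Srsf2). Under that setting 7.41% of all genes were lower with Myod1 and 8.78% with Setdb1 knockdown, so that 5 of 42 is a share near the background, above all for Setdb1. GC content and length were not removed one at a time. The general medians were then -0.35, -0.17 and -0.35 for Myod1, Pparg and Setdb1. Rbm38, Rbfox2 and Rbfox1 stayed at least 2-fold higher with Myod1 under each of these settings.

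Other genes of the splicing machinery were taken from lists of related genes. Of 54 core spliceosome genes compared, the proteins of the snRNPs and their partners, none was at least 2-fold higher in any of the 3 comparisons. Of all genes 14.0%, 4.22% and 9.34% were higher with Myod1, Pparg and Setdb1 knockdown. Core spliceosome genes at least 2-fold lower with Myod1 expression included Sf3b1 (-1.56), a core protein of the U2 snRNP, and Snrpe (-1.05), an Sm ring protein. Those lower with Setdb1 knockdown included the helicase Dhx15 (-1.18), Prpf4 (-1.18) and Sart3 (-1.09), and with Pparg expression none was lower. Dhx15 (-0.59) and Prpf4 (-0.98) lay within 2-fold against the other control. In both comparisons the share of the list that was lower lay under the 7.55% and 10.3% of all genes. Their medians were -0.43, -0.32 and -0.19 for Myod1, Pparg and Setdb1. Of 16 SR-related proteins, Pnn, Luc7l3 and Scaf11 were lower with Myod1 and Scaf11, Pnn and Srrm2 with Setdb1 knockdown. That is 3 of 16 in each, beside 7.55% and 10.3% of all genes. The medians of the 16 were -0.59 with Myod1 and -0.47 with Setdb1 knockdown.

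Among the 9 kinases that phosphorylate SR proteins, Srpk3, the muscle form, stood at 40.0 FPKM with Myod1 expression and 0.110 FPKM in the control, a log2 ratio of 5.21. Prpf4b was lower (-1.43), so that 1 of 9 was higher and 1 of 9 lower beside 14.0% and 7.55% of all genes, and none of the 9 changed 2-fold in the other comparisons. Of 31 other RNA-binding splicing regulators, the cold-inducible protein Cirbp (1.49) was higher with Myod1, 1 of 31 beside 14.0% of all genes. Taf15 (-1.66), Rbm25 (-1.36), Matr3 (-1.32) and Rbm39 (-1.12) were lower, 4 of 31 beside 7.55% of all genes. The ratio against the other control was -0.59 for Taf15 and -0.92 for Rbm39, so neither was then 2-fold lower. With Setdb1 knockdown Syncrip (-1.65), Tardbp (-1.24) and Rbmx (-1.01) were lower, 3 of 31 beside 10.3% of all genes, and Rbmx was at -0.51 against the other control. With Pparg expression none of the 31 changed 2-fold. The medians of the 31 were -0.65 with Myod1 and -0.54 with Setdb1 knockdown.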

How the data were processed

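RNA of 5 B16F10 libraries, 1 per group, was analysed from 1 table of FPKM values deposited by the authors. The submitters' processing notes name CASAVA, HISAT2, featureCounts 1.5.0-p3 and GRCm38. Strand use and the handling of shared reads are not given in the sources used here. FPKM times gene length were whole multiples of 1 step per library for 100% of values (tolerance 0.05), which gave reads per gene. The divisor behind the deposited FPKM was not the read total, so libraries were already scaled to each other. Of 53 members, 51 had the same position in GENCODE M21.

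Genes with at least 1 FPKM in at least 1 library were compared as log2(FPKM + 1) ratios, which understate changes of low genes. The shares of all genes were not matched on expression level to the members or to the related lists. The limit was 2-fold. Wilson intervals (95%) and a floor of 3 reads cover counting error only. No count test was run, because each group is 1 library.

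Members and lists were chosen with earlier results of these data known. Named genes are the members at least 2-fold changed, the extremes of each family, the members not compared, the 3 targets, and up to 3 extremes in each direction per related list. Not every gene of the related lists is reported here. Srsf5, Srsf7, Hnrnpdl, March2, Mettl23 and Gm14453 were named, where they are, after their values were seen. Alternatives were another pseudocount, filter, limit, scaling and control. Trend removal for GC content and length (20 bins, 5 rounds) was chosen after seeing the data. Python 3.11.15, pandas 2.3.3, numpy 2.4.6 and matplotlib 3.10.9 were used.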

Additional observations from a re-analysis of the deposited data

How the results depend on the processing

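No paired analysis was possible because each group is 1 library. With a 4-fold limit, 1 member was higher and 0 were lower with Myod1 expression (3 and 8 at 2-fold), and 0 were lower with Setdb1 knockdown (12 at 2-fold). Division by the column sum gave 16 members lower with Myod1. After removal of trends with GC content and length, chosen after seeing the data, 5 members were lower with Myod1, and 5 were lower and 1 (Ptbp2) higher with Setdb1 knockdown. A pseudocount of 0.1 made 1 member, Rbm20, higher with Setdb1 knockdown. Against the other control 2 members were lower with Pparg expression (0 as reported), and against both controls 7 were lower with Setdb1 knockdown. The other 66 values of these counts stayed within 1.5 times the reported ones. The sign of the Celf2 ratio with Myod1 expression was not stable (-0.45 to 0.36), nor were those of Hnrnpa2b1 (-0.24 to 0.06), Mbnl1 (-0.65 to 0.03), Mbnl3 (-0.22 to 0.17), Ptbp3 and Rbm38 with Pparg expression. Rbfox1 and Rbm24 have no reads to compare outside the Myod1 library. The cause of these shifts was not tested. Genes under about 1 FPKM, such as Rbm24 with 14 reads, are at the edge of what this depth shows.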
